A study of Mus musculus with 12 samples.

Results

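The genes described here are 10 cell-cycle and chromatin regulators: the cyclin-dependent kinase (CDK) inhibitor genes Cdkn2a, Cdkn2b and Cdkn1a, the kinases Cdk4 and Cdk6, and the Polycomb genes Ezh1, Ezh2, Eed, Suz12 and Bmi1. They were taken by name, and every array probe assigned to a RefSeq transcript of these genes was used. All 10 had at least 1 probe, 18 probes in all, among 20887 genes on the array that could be named, and all 18 probes passed the filter on dim signal. The set was put together with the higher Cdkn2a of older skin and the genotype values of Cdk4 and Ezh2 already known, so the age comparison is given for these genes as values without a test.

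Plucked skin of 12 male mice of mixed C57Bl6/129Sv background was profiled on 1 single-colour array per mouse, 12 days after the hair was pulled out to start regrowth. The groups were Sox4 conditional knockout (cKO) mice of Exp 1, aged 68 to 72 weeks (mice 2, 5 and 6), wild-type (WT) mice of Exp 1, aged 69 to 72 weeks (mice 1, 2 and 3), cKO mice of Exp 2, aged 16 to 18 weeks (mice 1, 3 and 4), and WT mice of Exp 2, aged 18 to 20 weeks (mice 4, 5 and 6). All mice of Exp 1 were old and all mice of Exp 2 young, and the effects of age and of experiment cannot be told apart. The knockout was made in skin, with the promoter of the recombinase not given in the sources used here.

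Levels are log2 spot intensities minus the 75th percentile of the array, so 0 marks the 75th percentile and 1 unit is a doubling. They compare mice for the same probe and not one gene with another. Between 53.9% and 62.6% of the probes of an array were well above background, and the 75th percentile of intensity lay between 364 and 554. Sox4 itself lay between -4.26 and -2.55 in cKO skin, against 1.90 to 2.43 in WT skin, a difference of -5.54 ± 0.12 (SE), 46.4-fold lower (limma, adjusted p = 3.8e-09). The skeletal muscle markers stood apart between mice: their mean level over 7 genes lay between -2.88 and 1.17 in older cKO mice, -4.68 and -3.08 in older WT mice, 5.07 and 6.32 in younger cKO mice, and -0.77 and 6.20 in younger WT mice. One older knockout, cKO 5, had the lowest hair matrix marker level, 0.67, and the lowest melanocyte marker level, 0.99, while no other mouse was below 2.93 and 3.55.

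Cdk4 and Cdk6, with their D cyclins, phosphorylate the retinoblastoma protein and thereby let E2F factors start DNA replication. The Cdkn2a and Cdkn2b proteins p16Ink4a and p15Ink4b bind these kinases and block them, and p21, the product of Cdkn1a, blocks other CDKs as well. Polycomb repressive complex 2, built from Ezh2 or Ezh1 with Eed and Suz12, methylates histone H3 at lysine 27, and Bmi1 belongs to Polycomb repressive complex 1. Together they keep the Cdkn2a locus silent in young proliferating cells, and p16Ink4a is widely used as a marker of ageing and senescent tissue. Skin 12 days after plucking contains growing hair follicles, in which matrix cells divide.

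The Cdkn2a locus has separate starts for its transcripts, and the promoters of the genes the results turn on are shown because the locus is read from 2 starts and because Cdk4 and Ezh2 both had lower means in cKO skin. RefSeq gives 12 start windows for the 10 genes, each covering 250 bases before the start and 50 bases after it in GRCm38.p6. The windows were searched on both strands for an E2F site (TTTNNCGC) and for a Sox core (AACAAT), whose matches did not overlap. Below, capitals mark the E2F match and the sequences run 5′ to 3′ on the strand of the gene.
Cdkn2a upstream start, from which the Arf transcript begins, chr4:89294570-89294869, minus strand: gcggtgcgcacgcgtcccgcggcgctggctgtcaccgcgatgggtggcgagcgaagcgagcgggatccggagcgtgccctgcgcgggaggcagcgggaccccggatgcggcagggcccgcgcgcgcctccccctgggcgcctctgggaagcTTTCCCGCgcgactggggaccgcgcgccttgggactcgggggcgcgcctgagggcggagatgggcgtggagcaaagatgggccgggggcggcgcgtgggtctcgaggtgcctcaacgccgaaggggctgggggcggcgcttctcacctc
Cdkn2a downstream start, from which the p16Ink4a transcript begins, chr4:89282143-89282442, minus strand: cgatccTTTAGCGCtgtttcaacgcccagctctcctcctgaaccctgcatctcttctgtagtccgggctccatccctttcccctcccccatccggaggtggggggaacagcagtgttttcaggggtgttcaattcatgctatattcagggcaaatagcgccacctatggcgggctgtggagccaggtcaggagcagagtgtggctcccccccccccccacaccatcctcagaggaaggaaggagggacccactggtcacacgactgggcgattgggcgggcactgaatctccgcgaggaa
Cdk4, chr10:127063285-127063584, plus strand: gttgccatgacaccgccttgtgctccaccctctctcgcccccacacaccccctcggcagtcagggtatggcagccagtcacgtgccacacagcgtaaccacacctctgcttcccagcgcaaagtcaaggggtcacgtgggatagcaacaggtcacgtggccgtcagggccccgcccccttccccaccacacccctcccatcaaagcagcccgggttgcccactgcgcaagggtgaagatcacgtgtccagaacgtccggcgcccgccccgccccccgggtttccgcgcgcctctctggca
Ezh2, chr6:47594981-47595280, minus strand: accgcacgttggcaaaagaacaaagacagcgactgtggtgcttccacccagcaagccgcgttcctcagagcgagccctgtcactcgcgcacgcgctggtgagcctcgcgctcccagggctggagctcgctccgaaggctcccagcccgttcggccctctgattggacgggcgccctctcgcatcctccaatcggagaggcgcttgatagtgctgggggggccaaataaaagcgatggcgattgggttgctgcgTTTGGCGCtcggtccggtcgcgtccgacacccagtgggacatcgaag
The E2F letters began 99 bases before the upstream Cdkn2a start, 244 bases before the downstream one and 3 bases past the Ezh2 start, and the Cdk4 window held none. Of the 12 windows, 5 held the E2F letters, those of Cdkn2a (both starts), Cdk6, Ezh2 and Suz12, against 5.17% of 32841 promoter windows of the same length. The Sox core was found in 1 window, that of Cdk6, against 10.7% of all windows. All 12 windows had more G and C than the median window (54.7% to 77% against 52.7%), and in 11 the ratio of observed to expected CpG was above the median of 0.38. The E2F letters hold a CpG and the windows compared were not matched for G and C, so no enrichment is read from the counts. The upstream Cdkn2a start reached 77% G and C with a CpG ratio of 1.04, and the downstream start had 60.3% with a ratio of 0.44. These are descriptions of letters in the windows. Binding was not measured.

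Cdkn2a was high in all older mice of both genotypes, low in all younger cKO mice, and spread between these levels in younger WT mice. Its brighter probe read 1.1, 0.53 and 0.06 in older cKO mice 2, 5 and 6, and 1.06, 0.41 and -0.35 in older WT mice 1, 2 and 3. It read -3.51, -3.75 and -3.39 in younger cKO mice 1, 3 and 4, and -2.98, 0.35 and -0.96 in younger WT mice 4, 5 and 6. The older and younger cKO mice did not overlap, whereas WT 5, a young mouse, lay inside the range of the older WT mice and WT 4 lay near the young knockouts. As processed intensities these were 412 to 1066 in older cKO mice and 427 to 1066 in older WT mice, against 40.3 to 48.7 in younger cKO mice and 67.6 to 573 in younger WT mice.

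**Figure D1:**
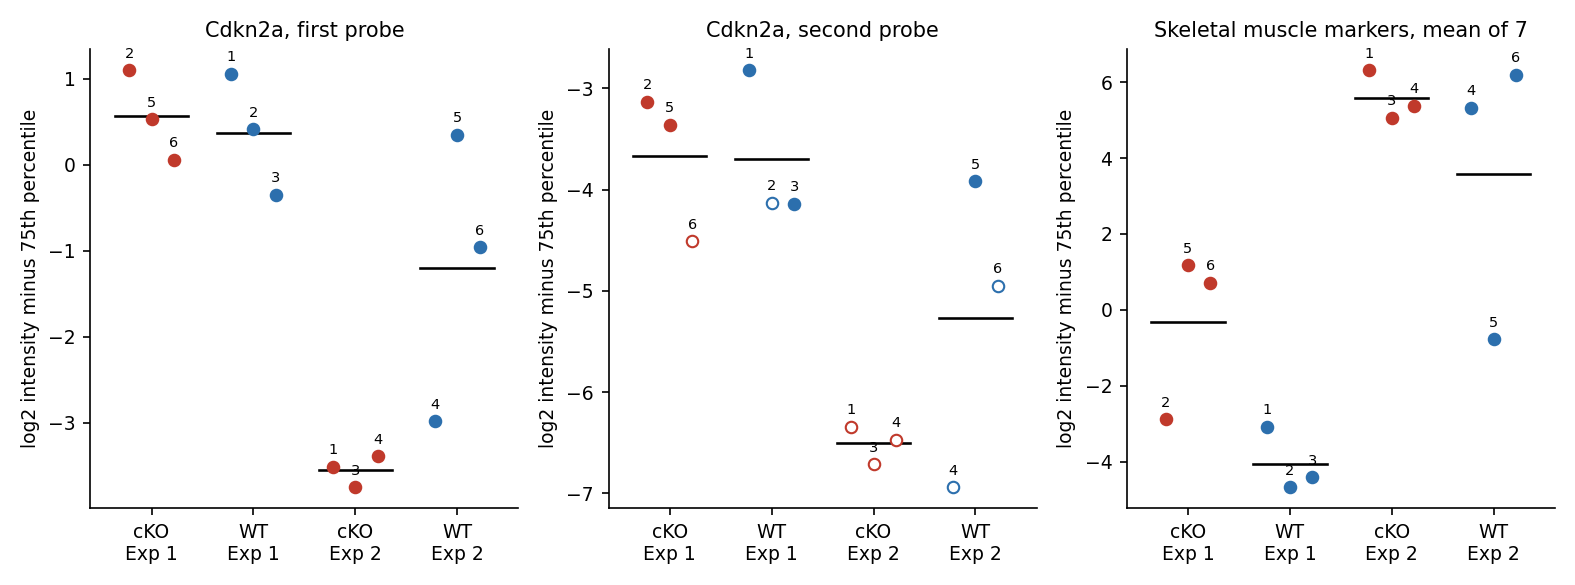
Level of the brighter Cdkn2a probe, the dimmer Cdkn2a probe and the mean of 7 skeletal muscle markers in each mouse (log2 intensity minus the 75th percentile of the array). Points are mice, labelled with the mouse number, lines are group means, and open points were not well above background. The 3 younger cKO mice lie between -3.75 and -3.39 for the brighter probe, below all other mice, and the young WT 5 stands at 0.35 among the older mice.

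Group means of Cdkn2a were 0.56 ± 0.52 in older cKO mice, 0.37 ± 0.71 in older WT mice, -3.55 ± 0.18 in younger cKO mice and -1.19 ± 1.68 in younger WT mice (SD, n = 3 each). In descending order the older knockouts and older wild types differed by less than their spread, younger WT mice came next with the widest spread, and younger cKO mice came last. Older minus younger was 4.11 on the log2 scale in cKO mice, 17.3-fold, and 1.57 in WT mice, 2.96-fold, with no test because this difference was used in choosing the gene. Without WT 4 the WT difference was 0.67, and without WT 5 it was 2.34. The arrays lay on 3 slides, and the WT difference was -0.32 within slide 1, where WT 5 was the only young WT mouse, and 3.03 within slide 2, while the cKO difference was 4.09 and 3.92.

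The dimmer Cdkn2a probe is assigned to the same transcript as the brighter one. Which of the Arf and p16Ink4a transcripts each probe reads was not determined, so the Cdkn2a values cannot be read as p16Ink4a. The dimmer probe had lower levels on every array. It read -3.13, -3.36 and -4.51 in older cKO mice 2, 5 and 6 and -2.82, -4.13 and -4.14 in older WT mice 1, 2 and 3. It read -6.34, -6.71 and -6.47 in younger cKO mice 1, 3 and 4 and -6.94, -3.92 and -4.95 in younger WT mice 4, 5 and 6. The order of mice was close to that of the brighter probe, with WT 5 again the highest young mouse. This probe was well above background on 5 of the 12 arrays, 2 of older cKO, 2 of older WT, none of younger cKO and 1 of younger WT. Its mean in older cKO mice was 2.55-fold above a floor set for younger cKO mice. The floor takes the higher of the probe's own signal and the lowest signal of any probe well above background on each younger cKO array. The older mean includes cKO 6, where the probe was not well above background, so the ratio is not a strict lower limit.

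The muscle marker level ran opposite to Cdkn2a in most mice, and all 7 markers had lower means in older than in younger mice of both genotypes. In cKO mice 5 of the 7 passed the limma test, where 9.98% of all genes did. In WT mice none passed, where 0.84% of all genes did. It was -2.88, 1.17 and 0.72 in older cKO mice 2, 5 and 6, and -3.08, -4.68 and -4.41 in older WT mice 1, 2 and 3. It was 6.32, 5.07 and 5.38 in younger cKO mice 1, 3 and 4, and 5.33, -0.77 and 6.20 in younger WT mice 4, 5 and 6. The young mouse with high Cdkn2a, WT 5, was also the only young mouse with a muscle level below 0, while WT 6 had the second highest muscle level and an intermediate Cdkn2a. With the muscle level as a covariate, an analysis chosen after the values were seen, older minus younger Cdkn2a was 2.64 in cKO mice and -0.33 in WT mice. Muscle levels of older and younger mice did not overlap in either genotype. These 2 values therefore rest on extrapolation and cannot give the part of muscle in Cdkn2a.

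Other cell markers also moved with age. In cKO mice all 6 basal keratinocyte markers were higher in Exp 1 than in Exp 2 and 4 passed the limma test, where 9.98% of all genes did. Their mean level was 5.63 to 6.53 in older and 4.90 to 5.24 in younger cKO mice. In WT mice it was 5.48 to 5.72 in older and 5.02 to 5.30 in younger animals. The 5 macrophage markers all had lower means in older mice, and in cKO mice 3 of them passed as lower. Their mean levels were -0.22 to 0.49 in older cKO mice and 1.13 to 1.44 in younger cKO mice. In WT mice they were 0.24 to 0.87 in older and 0.92 to 1.20 in younger animals. All 5 adipocyte markers had lower means in older mice, with median differences of -1.95 in cKO and -1.02 in WT mice. All 7 hair matrix markers did too, with medians of -0.9 and -0.37, and no marker of these 2 lists passed the test. In cKO mice 2 of 4 suprabasal keratinocyte and 2 of 5 T lymphocyte markers passed as higher in older animals. Other markers of these lists went the other way: Ivl was -0.43 in cKO and -0.39 in WT mice, and Lck -0.10 in both. Cd2 was -0.26 in WT mice. Of 6 fibroblast markers 1, Pdgfra, passed as lower in older cKO mice. In WT mice no marker of any of these lists passed, where 0.84% of all genes did. The part of these shifts and of muscle in the Cdkn2a values was not tested, and the muscle covariate fit cannot decide it. In whole skin, fewer cells of a type and less RNA per cell cannot be told apart.

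Between genotypes the Cdkn2a values overlapped in older mice and were lower in cKO than in WT among younger mice, by a difference that did not pass the test. In Exp 1 the difference of cKO minus WT was 0.19 ± 0.69 (SE, 95% interval -1.34 to 1.72, limma adjusted p = 0.94). In Exp 2 it was -2.35 ± 0.69 (95% interval -3.88 to -0.82, limma adjusted p = 0.70, unadjusted p = 0.0063), and all 3 cKO mice were below all 3 WT mice. Among all genes 9.88% were lower in cKO without overlap in Exp 2. The fit uses 1 spread for all 4 groups. The Exp 2 SDs of Cdkn2a were 0.18 in cKO and 1.68 in WT mice, so the Exp 2 interval may be too narrow. The difference between the genotype differences was 2.54 ± 0.98 with an adjusted p of 1 in the limma fit. Averaged over both experiments the difference was -1.08 ± 0.49 (limma adjusted p = 0.41).

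Among the genes whose levels over the 12 arrays were most like those of Cdkn2a, out of 15398 compared, were Anks1 (Pearson r = 0.907), Txlna (0.907), the nerve growth factor receptor gene Ngfr (0.90) and Adgrf1 (0.897). Their own shifts between experiments were smaller than that of Cdkn2a. Older minus younger over both genotypes was 1.30 for Adgrf1 and between 0.30 and 0.34 for the other 3, against 2.84 for Cdkn2a. These correlations are over mice that share the age and muscle differences above, and they describe likeness of pattern in these arrays.

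The neighbouring inhibitor gene Cdkn2b, which encodes p15Ink4b, was measured with a brighter probe at 2.22, 3.25 and 2.61 in older cKO mice 2, 5 and 6 and 2.42, 2.77 and 2.68 in older WT mice 1, 2 and 3. It was 1.92, 1.84 and 2.23 in younger cKO mice 1, 3 and 4 and 2.18, 2.52 and 1.94 in younger WT mice 4, 5 and 6. Older and younger mice overlapped in both genotypes, in cKO by the small step between cKO 2 and cKO 4. Older minus younger was 0.70 in cKO mice and 0.41 in WT mice, against 4.11 and 1.57 for Cdkn2a. The genotype difference averaged over both experiments was -0.08 ± 0.18 (SE, 95% interval -0.47 to 0.32, limma adjusted p = 0.89). It turned to 0.45 within slide 2 and was -0.41 within slide 1, so no direction is given. Its dimmer probe differed between genotypes by -0.02 ± 0.15, with 1 of 12 arrays missing because its spot was marked as an outlier.

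Cdkn1a, which encodes p21, was bright in every mouse and its genotypes overlapped. It read 4.13, 3.85 and 3.70 in older cKO mice 2, 5 and 6, 3.87, 3.70 and 3.62 in older WT mice 1, 2 and 3, 3.88, 4.14 and 3.93 in younger cKO mice 1, 3 and 4, and 4.23, 4.61 and 3.84 in younger WT mice 4, 5 and 6. Its probe is printed as 10 spots per array, whose SD on 1 array was 0.025 to 0.057 on the log2 scale, against an SD between mice of a group of 0.12 to 0.38. On this probe older minus younger was -0.09 in cKO mice and -0.50 in WT mice, opposite in sign to Cdkn2a. The genotype difference was -0.04 ± 0.13 (SE, 95% interval -0.34 to 0.26, limma adjusted p = 0.93).
A second Cdkn1a probe, assigned to another transcript, disagreed with the main one in the older knockouts. This probe was faint, with processed intensities of 30.7 to 100 against 5162 to 10930 for the main one. It was still well above background on all 12 arrays. It read -2.32, -2.21 and -3.62 in older cKO mice 2, 5 and 6 against -3.27, -3.47 and -4.15 in older WT mice 1, 2 and 3, and the difference in Exp 1 was 0.92 ± 0.35 (limma over all probes, adjusted p = 0.39). Averaged over both experiments it was 0.50 ± 0.25 (adjusted p = 0.46), and the mean of both probes gave 0.23. Older minus younger on this probe was 0.94 in cKO mice and 0.11 in WT mice, so the Cdkn1a probes also disagreed in the sign of the age difference.

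Cdk4 was lower in every cKO mouse than in any WT mouse, and was the 1 gene of the 10 past the threshold between genotypes in the fit over all genes. Its genotype values, like those of Ezh2, were known when the 10 genes were chosen, so their p-values describe this fit and are not independent support. It read 4.64, 4.40 and 4.69 in older cKO mice 2, 5 and 6, against 5.06, 5.42 and 5.17 in older WT mice 1, 2 and 3. It read 4.66, 4.92 and 4.88 in younger cKO mice 1, 3 and 4, against 5.47, 5.59 and 5.20 in younger WT mice 4, 5 and 6. The highest cKO mouse, cKO 3, stayed below the lowest WT mouse, WT 1, while 1.2% of all genes were lower in cKO without overlap. The mean was 4.70 ± 0.19 in cKO and 5.32 ± 0.21 in WT mice (SD, n = 6 each), a difference of -0.62 ± 0.11 (SE, 95% interval -0.86 to -0.39), 1.54-fold lower in cKO (limma, adjusted p = 0.041 over 16182 genes). In this fit 0.42% of the 16182 genes passed the test, 0.389% as lower in cKO.

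The size of the Cdk4 difference was similar in old and young skin. It was -0.64 ± 0.15 in Exp 1 (95% interval -0.97 to -0.31) and -0.60 ± 0.15 in Exp 2 (95% interval -0.94 to -0.27), with limma adjusted p of 0.18 and 0.49. The difference between them was -0.04 with a 95% interval of -0.51 to 0.43. Within slide 1 the genotype difference was -0.73, and within slide 2 it was -0.55, each from a fit of genotype plus experiment. Older minus younger was -0.24 in cKO mice and -0.20 in WT mice, and in both genotypes the ages overlapped.

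The other 2 Cdk4 probes gave the same picture on fainter signals. The probe of intermediate brightness read 3.40, 3.06 and 3.39 in older cKO mice against 3.83, 4.11 and 3.91 in older WT mice, and 3.46, 3.70 and 3.53 in younger cKO mice against 4.28, 4.49 and 3.99 in younger WT mice, again without overlap between genotypes. Its difference was -0.68 ± 0.11 (limma over all probes, adjusted p = 0.034). The faintest probe, 2.22 to 2.88 in cKO mice and 2.95 to 3.68 in WT mice, had a difference of -0.68 ± 0.13 (limma over all probes, adjusted p = 0.071).

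The call on Cdk4 stood close to its threshold and was lost in 19 of 27 other analyses. The direction was kept in all 27. As every cKO mouse lay below every WT mouse, it could not turn with a mouse left out or a slide alone. The kept direction therefore adds no support from those fits. Leaving out 1 mouse gave differences of -0.68 to -0.57, and the call remained without cKO 6, WT 1 or WT 6 and was lost without any other mouse (limma adjusted p 0.039 to 0.14). The muscle markers, 7 of 7 higher in cKO than in WT with a median of 2.83 and none passing the test, moved with genotype as well, and with the muscle level as a covariate Cdk4 differed by -0.48 (limma adjusted p = 0.39). The hair matrix markers, 7 of 7 lower with a median of -0.43 and none passing the test, had mean levels of 0.67 to 3.34 in older cKO and 2.98 to 3.32 in older WT mice. In younger mice they were 3.31 to 3.48 in cKO and 3.33 to 3.83 in WT, and without cKO 5, the mouse with the lowest hair matrix level, the Cdk4 difference was -0.58 (limma adjusted p = 0.053).

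Among the genes most like Cdk4 over the 12 arrays were Lck (Pearson r = 0.978), the replication helicase subunit Mcm7 (0.972), the tubulin Tubb5 (0.972) and Traf4 (0.965), out of 15398 genes compared. Each had a lower mean in cKO skin, by -0.43 for Lck, -0.59 for Mcm7, -0.75 for Tubb5 and -0.59 for Traf4. They were picked for likeness to Cdk4 over these same arrays, so the shared direction follows from the choice and adds no support. Lck encodes a kinase of T lymphocytes and is one of the 5 markers of the T lymphocyte list, whose median difference was -0.55 with none passing the test.

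Cdk6, the partner kinase of Cdk4 in binding D cyclins, was among the faint signals. Its probe was well above background on 8 of 12 arrays, 2 in each group, and lay between -5.10 and -3.39 in cKO mice with a median of -4.21, and between -4.65 and -3.60 in WT mice with a median of -4.20. The genotypes overlapped, and the difference was -0.10 ± 0.25 (95% interval -0.66 to 0.46, limma adjusted p = 0.90). Older minus younger was 0.47 in cKO mice and 0.50 in WT mice, within ranges that overlapped.

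**Figure D2:**
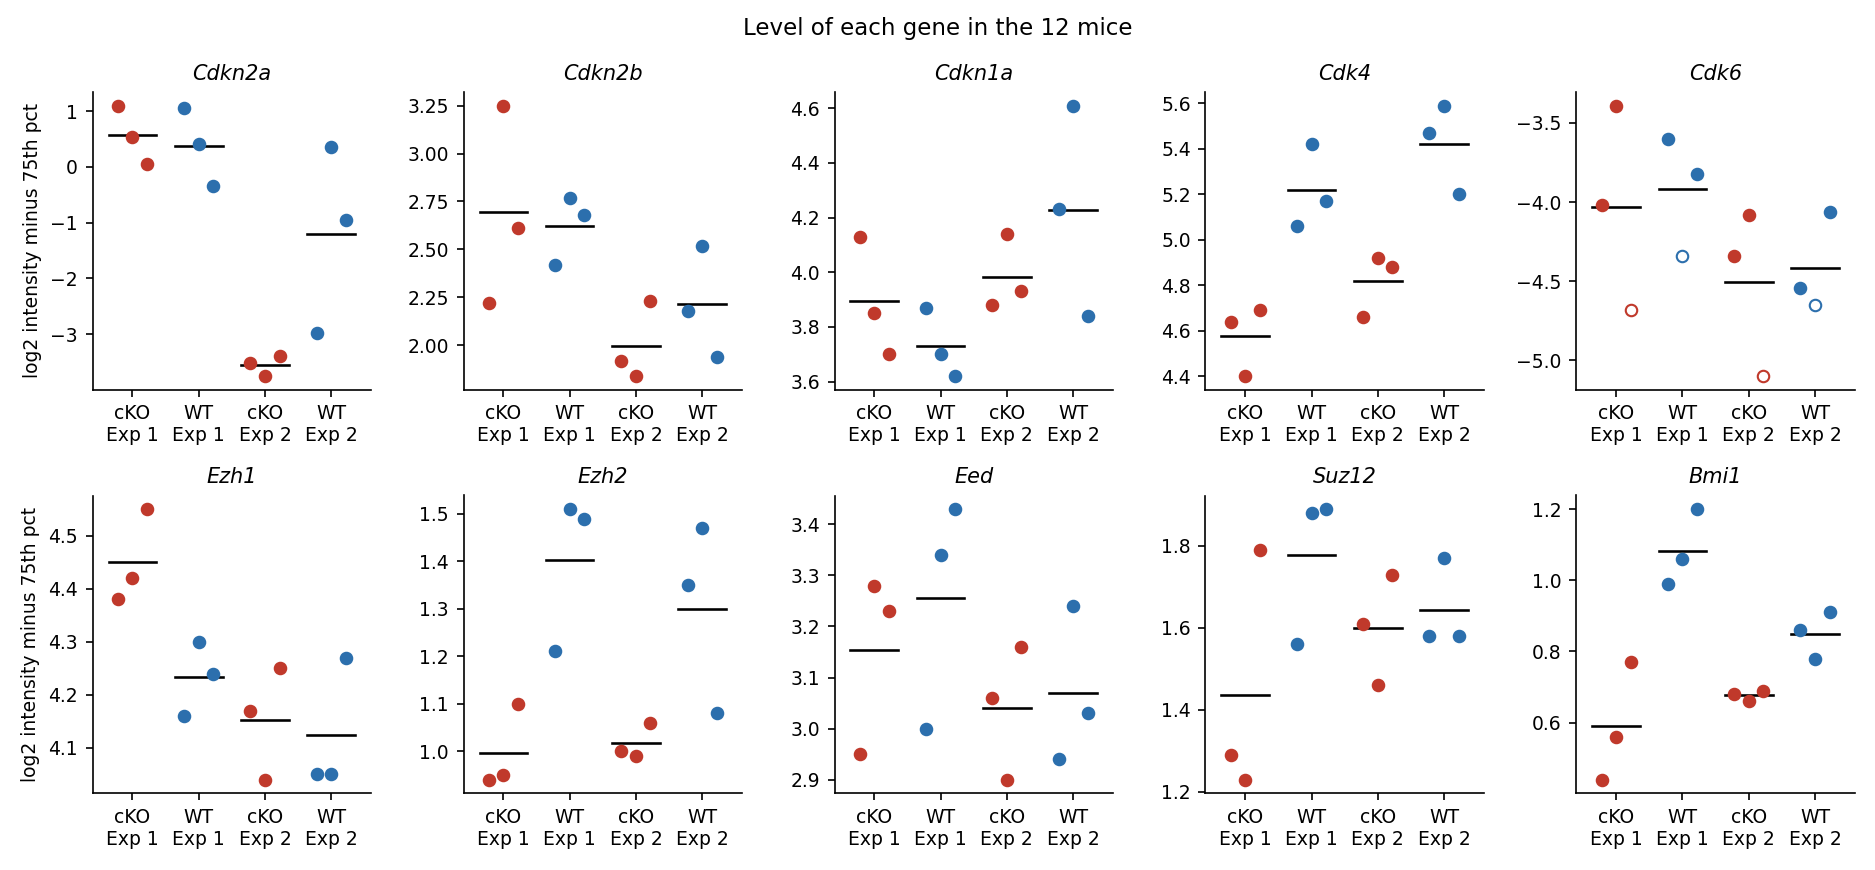
Level of the 10 genes in the 12 mice, brightest probe of each (log2 intensity minus the 75th percentile of the array). Points are mice (cKO in red, WT in blue), lines are group means, and open points were not well above background. The axes differ between panels. Cdk4 lies between 4.40 and 4.92 in cKO and between 5.06 and 5.59 in WT mice.

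Among the Polycomb genes, Ezh2 and Bmi1 had lower means in cKO than in WT skin in both experiments but did not pass the test after adjustment. Ezh2, the methyltransferase subunit typical of dividing cells, read 0.94, 0.95 and 1.1 in older cKO mice 2, 5 and 6, against 1.21, 1.51 and 1.49 in older WT mice 1, 2 and 3. It read 1.00, 0.99 and 1.06 in younger cKO mice 1, 3 and 4, against 1.35, 1.47 and 1.08 in younger WT mice 4, 5 and 6. The genotypes were separate within each experiment, as were 7.21% of all genes with lower values in cKO in Exp 1 and 9.88% in Exp 2, and over all mice only cKO 6 and WT 6 crossed, by a narrow step. The 6 cKO mice were close together, with a mean of 1.00 ± 0.06, against 1.35 ± 0.17 in the 6 WT mice (SD).

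The Ezh2 difference averaged over both experiments was -0.35 ± 0.092 (SE, 95% interval -0.55 to -0.14), 1.27-fold lower in cKO, with a limma adjusted p of 0.16 and an unadjusted p of 0.0034. It was -0.41 in Exp 1 (limma adjusted p = 0.29) and -0.29 in Exp 2 (adjusted p = 0.98), and within the slides it was -0.48 and -0.20. Older minus younger was -0.02 in cKO mice and 0.10 in WT mice, so Ezh2 means differed little between ages in the same mice in which Cdkn2a differed by 4.11 and 1.57. The genes most like Ezh2 were the nucleoporin gene Nup43 (Pearson r = 0.981), the thymidylate synthase pseudogene Tyms-ps (0.97), Nif3l1 (0.966), Chsy1 (0.966) and Phf6 (0.965). Their probes had genotype differences of -0.31 to -0.48, a direction that follows from picking genes with the Ezh2 pattern and adds no support. The Tyms-ps probe may share sequence with its parent gene, so which of them it read is uncertain.

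Bmi1 read 0.44, 0.56 and 0.77 in older cKO mice 2, 5 and 6, against 0.99, 1.06 and 1.20 in older WT mice 1, 2 and 3. It read 0.68, 0.66 and 0.69 in younger cKO mice 1, 3 and 4, against 0.86, 0.78 and 0.91 in younger WT mice 4, 5 and 6. No cKO mouse overlapped with a WT mouse, while 1.2% of all genes were lower in cKO without overlap. The closest pair was cKO 6 at 0.77 and WT 5 at 0.78. The difference was -0.33 ± 0.079 (SE, 95% interval -0.51 to -0.16), 1.26-fold lower in cKO (limma adjusted p = 0.13, unadjusted p = 0.0018). It was -0.49 in Exp 1 (limma adjusted p = 0.18) and -0.17 in Exp 2 (adjusted p = 0.98), and the difference between these, -0.32 with a 95% interval of -0.67 to 0.04, did not pass the test. A second Bmi1 probe differed by -0.25 ± 0.090 (limma over all probes, adjusted p = 0.32), and its genotypes overlapped. Older minus younger was -0.08 in cKO mice and 0.23 in WT mice.

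Ezh1 is the methyltransferase subunit found in resting as well as dividing cells. By brightest probe it was the 1 gene of the 10 with a higher mean in cKO skin. It read 4.38, 4.42 and 4.55 in older cKO mice 2, 5 and 6 and 4.16, 4.30 and 4.24 in older WT mice 1, 2 and 3. It read 4.17, 4.04 and 4.25 in younger cKO mice 1, 3 and 4 and 4.05, 4.05 and 4.27 in younger WT mice 4, 5 and 6. The older knockouts were above all other mice, a pattern whose share over all genes was not counted. Higher values in older than in younger cKO mice without overlap were found for 17.4% of all genes. The averaged difference was 0.12 ± 0.078 (SE, 95% interval -0.05 to 0.30, limma adjusted p = 0.54), and 2 further probes gave 0.13 and 0.27. On the first of these, the older cKO 6 at 2.35 was below the young WT 5 at 2.36.

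Eed and Suz12, the subunits that complete the methyltransferase complex, overlapped between genotypes. Eed lay between 2.90 and 3.28 in cKO mice with a median of 3.11, and between 2.94 and 3.43 in WT mice with a median of 3.13 (n = 6 each), a difference of -0.07 ± 0.11 (95% interval -0.30 to 0.17, limma adjusted p = 0.83). Suz12 lay between 1.23 and 1.79 in cKO mice with a median of 1.54, and between 1.56 and 1.89 in WT mice with a median of 1.68. Its difference was -0.19 ± 0.12 (95% interval -0.45 to 0.07, limma adjusted p = 0.54). In older mice Suz12 was 1.29, 1.23 and 1.79 in cKO mice 2, 5 and 6 and 1.56, 1.88 and 1.89 in WT mice 1, 2 and 3, with cKO 6 the only knockout inside the WT range. Neither gene followed the age pattern of Cdkn2a: older minus younger in cKO and WT mice was 0.11 and 0.19 for Eed, and -0.17 and 0.13 for Suz12.

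**Figure D3:**
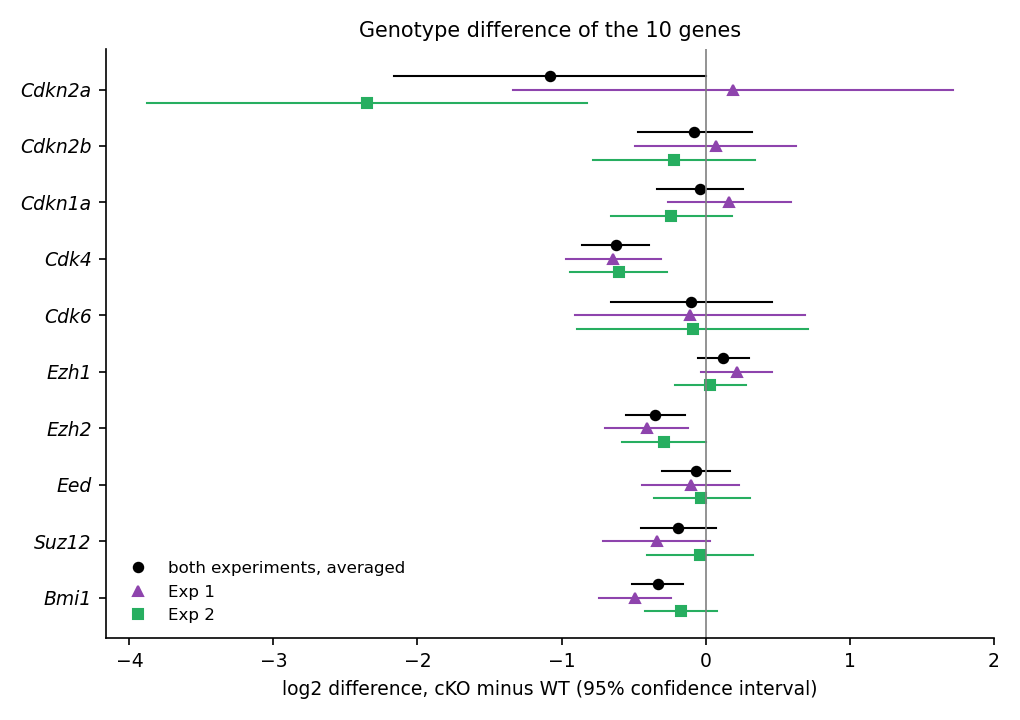
Difference of cKO minus WT for the 10 genes on the log2 scale, with its 95% confidence interval from the fit over all genes, averaged over both experiments (black circles), in Exp 1 (purple triangles) and in Exp 2 (green squares). The averaged interval lies below 0 for Cdk4 (-0.86 to -0.39), Ezh2 (-0.55 to -0.14) and Bmi1 (-0.51 to -0.16), and of these Cdk4 passed the adjusted test.

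Counted over the 10 genes, 9 had a lower mean in cKO than in WT skin, where 57.7% of all genes did. The median difference of the 10 was -0.15 against -0.035 over all genes. Cdk4 and Ezh2 were chosen with their genotype values known. The small differences of Cdkn2b, Cdkn1a, Cdk6 and Eed changed sign in some other analyses, so the count is a description and no common shift is read from it. In Exp 1 none of the 10 passed the limma test, where 0.117% of all genes did, and 3 had an unadjusted p below 0.05, as did 11.3% of all genes. In Exp 2 none passed, where 0.0618% of all genes did, and 2 had an unadjusted p below 0.05, as did 4.67% of all genes. None passed for the difference between the genotype differences, where 0.00618% of all genes did, and 1 had an unadjusted p below 0.05, as did 3.16% of all genes. Between ages, 2 of the 10 (Cdkn2a and Ezh1) were higher in older cKO mice without overlap, as were 17.4% of all genes, and 1 (Bmi1) was so in WT mice, as were 14.5% of all genes.

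The genes around these regulators were followed through 9 lists of 103 genes, of which 96 passed the filter on dim signal and were tested. None of the 96 passed the limma test between genotypes averaged over both experiments, where 0.42% of all genes did. An unadjusted p below 0.05 was found for 26 of the 96 and for 12.2% of all genes, and the median difference was -0.16 against -0.035 over all genes. None passed in Exp 1, where 27 of the 96 and 11.3% of all genes had an unadjusted p below 0.05. None passed in Exp 2, where 4 of the 96 and 4.67% of all genes did.

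Among the 5 other CDK inhibitors measured, Cdkn1c, which encodes p57, differed by -0.39 (limma adjusted p = 0.45) and Cdkn2c, which encodes p18Ink4c, by 0.07 (adjusted p = 0.81). Of 5 measured D and E cyclins and their partner, 4 had lower means in cKO skin. Cyclin E1 (Ccne1) differed by -0.44 (limma adjusted p = 0.27) and cyclin D1 (Ccnd1), which activates Cdk4, by -0.38 (adjusted p = 0.34). Ccnd1 averaged 3.71 ± 0.33 in older cKO and 4.23 ± 0.05 in older WT mice, and 3.70 ± 0.21 in younger cKO and 3.94 ± 0.35 in younger WT mice (SD, n = 3 each). The 13 RB family and E2F genes had a median of -0.14. The pocket protein gene Rbl2 differed by 0.40 (limma adjusted p = 0.34) and the E2F partner gene Tfdp1 by -0.21 (adjusted p = 0.38).

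Of the 7 accessory subunits of Polycomb repressive complex 2, 4 had lower means in cKO skin. The histone-binding subunit gene Rbbp4 averaged 4.00 ± 0.12 in cKO mice (SD, n = 6) and differed from WT by -0.37 ± 0.10 (SE, limma adjusted p = 0.19), and Mtf2 by -0.22 (adjusted p = 0.38). Of the 17 subunits of Polycomb repressive complex 1 other than Bmi1, 13 had lower means, with Cbx2 at -0.26 (limma adjusted p = 0.30) and Pcgf3 at -0.32 (adjusted p = 0.41). The demethylases that remove the Polycomb mark, Kdm6a and Kdm6b, differed by -0.12 and -0.10 (limma adjusted p = 0.58 and 0.62). None of these lists held a gene that passed the test, so the lower means are given as values.

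Downstream of Arf, the 12 measured genes of the p53 axis were evenly divided, with 6 higher and 6 lower means and a median of 0.03. Trp53 differed by -0.44 (limma adjusted p = 0.30) and Gdf15 by -1.01 (adjusted p = 0.22). The list of senescence-associated genes holds secreted factors together with the lysosomal enzyme gene Glb1 and the nuclear lamin gene Lmnb1, and 9 of its 12 measured genes had lower means in cKO skin. Lmnb1, which unlike the other genes of the list is reduced in senescent cells, differed by -0.51 (limma adjusted p = 0.31) and the cytokine gene Il1a by 0.39 (adjusted p = 0.39).

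The mitosis list had lower means in cKO skin for 23 of 23 measured genes, with a median of -0.36, which was -0.58 in Exp 1 and -0.14 in Exp 2. The spindle factor gene Tpx2 differed by -0.54 ± 0.10 (SE, limma adjusted p = 0.057) and the topoisomerase gene Top2a by -0.44 ± 0.11 (adjusted p = 0.13). The mean level of the list was 0.78 to 1.06 in older cKO and 1.19 to 1.59 in older WT mice, and 1.19 to 1.26 in younger cKO and 1.18 to 1.59 in younger WT mice. Older knockouts were thus the lowest group, and the younger genotypes overlapped. Tpx2 passed the test in 5 of 27 other analyses (limma adjusted p 0.028 to 0.048).

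**Figure D4:**
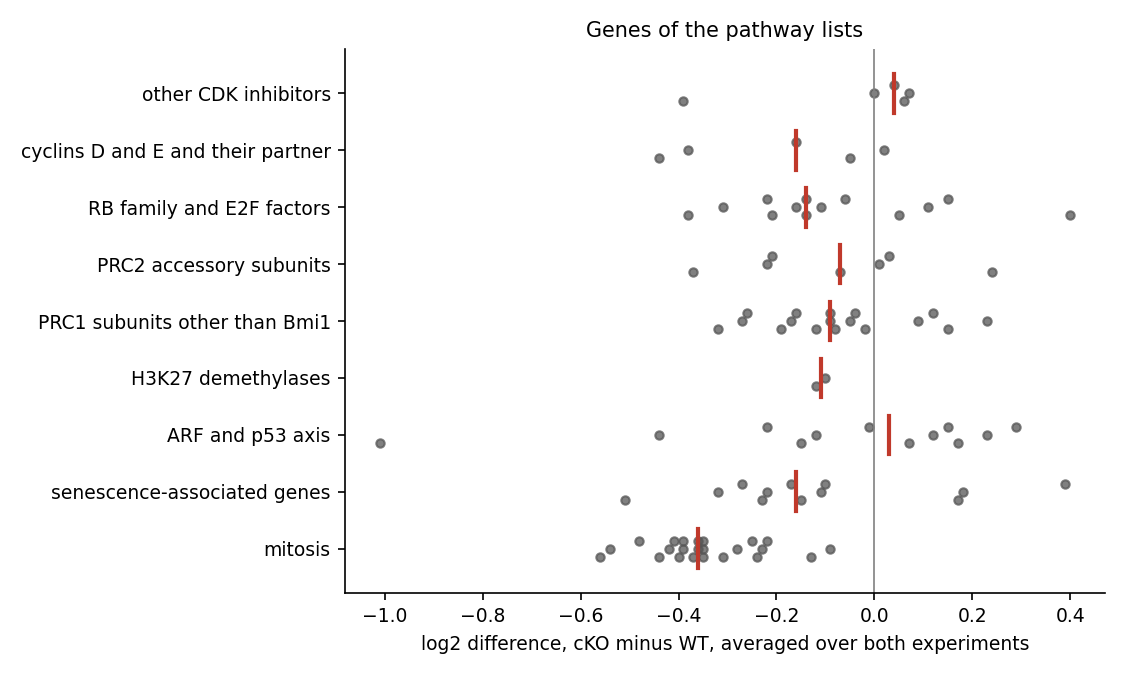
Difference of cKO minus WT averaged over both experiments, on the log2 scale, for each measured gene of the 9 lists. Points are genes and red bars are list medians. All 23 mitosis genes lie below 0 with a median of -0.36, and no gene of any list passed the adjusted test.

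Between ages, 7 of the 96 list genes passed in cKO mice, where 9.98% of all genes did, and none in WT mice, where 0.84% of all genes did and 13 of the 96 had an unadjusted p below 0.05, as did 18.5% of all genes (limma). The members were chosen on this contrast, so these counts are given as description. The gene that was higher in older cKO skin was Mdm2, the p53 antagonist, at 0.40. The 6 that were lower were Cdkn1c at -1.23, the repressive E2F gene E2f6 at -0.68, the Polycomb subunit gene Phc1 at -0.95, the stress-response gene Sesn2 at -0.98, Tpx2 at -0.65 and the mitotic kinesin gene Kif11 at -0.74. The same differences in WT mice were 0.32 for Mdm2, -0.80 for Cdkn1c, -0.30 for E2f6, -0.68 for Phc1, -0.82 for Sesn2, -0.32 for Tpx2 and -0.26 for Kif11, none past the threshold.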

How the data were processed

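Total RNA of plucked skin was measured on 12 one-colour arrays. Per the file headers, spot intensities come from Feature Extraction 11.5.1.1, whose processed signal is background-subtracted and not scaled between arrays. The deposited value table of the authors holds log2 values. Per the submitters' processing notes limma was used, with further steps not given in the sources used here. Per the file headers, the other columns used hold a score of 0 or 1 that marks spots well above background, saturated or outlying.

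Outlier spots were left out, spots were averaged per probe on the log2 scale, and each array's 75th percentile was subtracted. Probes were named through RefSeq GRCm38.p6 (27509 of 55681 probes). Probes well above background on at least 3 of 12 arrays were kept, and the brightest kept probe stood for its gene. The 16182 genes were fitted with limma 3.58.1 (R 4.3.3) as 4 group means with 8 residual degrees of freedom, and p-values were adjusted by Benjamini-Hochberg over all genes (threshold 0.05). The procedure was tested on simulated data. The gene table held 25 missing values. All 18 probes of the members were also tested in a fit of all kept probes. The number of arrays limits the precision.

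The members and lists were chosen with earlier results of these data known, so adjusted p-values for them describe and do not add independent support. The genes named are the 10 members, Sox4, the 5 genes most correlated with Cdkn2a, Cdk4 and Ezh2 (names that are only identifiers left out, and some genes not reported here) and, from each list, the genes past the threshold in a contrast or else the 2 with the smallest p between genotypes. Alternatives were median scaling, normexp with quantile normalization, other filters on dim probes, the mean of all probes, outlier spots kept, the authors' table, slide, name tag and mouse number as terms, each slide alone, robust variance and each mouse left out. For normexp the median spot and background intensities were used. For each slide alone, the averaged genotype difference came from a fit of genotype plus experiment, in place of the equal average over both experiments. The muscle covariate and the authors' table without the cKO mouse 1 column, which correlated with its own array at only 0.263 after each probe was centred, were added after the data were seen. Whether the mice came from separate litters is not stated.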

Additional observations from a re-analysis of the deposited data

How the results depend on the processing

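The averaged genotype difference of Cdk4 was -0.73 to -0.48 in 27 other analyses and lost its call in 19. There the count of the 10 genes past the threshold, 1 in the report, became 0. Cdk4 kept its direction in all 27, an outcome fixed in advance for the fits with a mouse left out or a slide alone. The limma adjusted p was 0.096 with median scaling (-0.71), 0.073 with no filter on dim probes (-0.62), 0.11 in the authors' table (-0.66) and 0.053 in that table without cKO mouse 1 (-0.55). It was 0.11 with the name tag as a term (-0.65), 0.068 with the slide as a block (-0.66), 0.24 on the arrays of slide 1 alone (-0.73), 0.71 on those of slide 2 alone (-0.55) and 0.39 with the muscle covariate (-0.48). Leaving out 1 mouse gave -0.68 to -0.57 and 0 to 1 of the 10 genes. Mouse numbers do not pair the mice, since most same-numbered mice came from different experiments and their deviations correlated between -0.26 and 0.072. With the number as a replicate block, Cdk4 differed by -0.62 (limma adjusted p = 0.45), older minus younger Cdkn2a in cKO mice was 2.84, Cdkn2a in Exp 1 was -0.53, and 4 genes passed in all.

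Cdkn2a, older minus younger, was 2.82 with normexp and quantile normalization, 2.77 in the authors' table, 2.85 in that table without cKO mouse 1 and 2.64 with the muscle covariate in cKO mice, against 4.11 (3.84 to 4.36 leaving out 1 mouse). In WT mice it was -0.32 within slide 1, 3.03 within slide 2 and -0.33 with the muscle covariate, against 1.57 (0.67 to 2.34). Ezh2 (-0.48 to -0.20) and Bmi1 (-0.42 to -0.26) kept direction and stayed short of the threshold in all 27. For both genes the genotypes were separate within each experiment, so with a mouse left out or a slide alone the direction could not turn.

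Besides the Cdkn2a difference between ages in WT mice, other directions turned. The averaged difference of Cdkn2b was 0.45 within slide 2 and 0.06 with the name tag (-0.21 to 0.04 leaving out 1 mouse). That of Cdkn1a was 0.00 with normexp, 0.23 with the mean of both probes, 0.20 with the muscle covariate and 0.02 in the authors' table without cKO mouse 1 (-0.13 to 0.06). That of Cdk6 ranged from -0.26 to 0.06 leaving out 1 mouse, and from -0.37 to 0.06 over its 26 alternatives. Eed gave 0.02 with normexp, 0.22 within slide 2, 0.03 with the name tag and 0.01 in the authors' table without cKO mouse 1. Cdkn2a in Exp 1 was -0.53 within slide 2 (-0.17 to 0.53), and Bmi1 in Exp 2 was 0.03 with the name tag. The cause was not tested.

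The count of list genes past the threshold was 1 (Tpx2) with normexp, with probes well above background on all arrays and with robust variance, and 0 to 1 leaving out 1 mouse. Genes past the threshold between genotypes numbered 68 in the report, 45 with no filter, 19 in the authors' table, 42 in that table without cKO mouse 1, 5 within slide 1, 0 within slide 2, 31 with the name tag, 10 with the muscle covariate and 31 to 122 leaving out 1 mouse. The count was 19 in Exp 1 (1 to 1318 over the alternatives) and 10 in Exp 2 (1 to 79), and the extremes came from single slides with 5 or 6 arrays. With median scaling the median over all genes became -0.12, against -0.035. Signal over background limits Cdk6 and the dimmer Cdkn2a probe.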
